A study of Rattus norvegicus with 6 samples.

Results

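The cytosolic ribosomal proteins are the protein subunits of the ribosome that translates nuclear mRNAs, and they were examined here as a family in vascular smooth muscle cells with and without flow over the culture. Members were all probe sets whose only annotated gene symbol starts with Rpl or Rps followed by a number or letter, with the ribosomal S6 kinases (Rps6k genes) left out. This gave 57 of 31042 probe sets on the array, for 50 genes of 14217 with a symbol of their own. Of these genes, 13 encode small subunit proteins, 29 large subunit proteins, 6 are paralogs of a core gene and 2 are annotated pseudogenes. No member probe set stood for Rplp1, Rplp2, Rps14, Rps19, Rps27a or Fau. A further 36 probe sets carried several symbols with at least 1 of the family among them. They are counted separately below and not named.

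The cells were passaged rat aortic smooth muscle cells, a cultured model of the vessel's contractile layer that here had no endothelium between the cells and the flow. All 6 cultures were first synchronized by 24 h without serum, in an albumin medium. For each of them 10% serum, 0.1% albumin and passages 3 to 5 are recorded, and the step at which serum was used is not given here. A group of 3 was then sheared for 24 h at 14 dyn per square centimetre, a level found in arteries, in a parallel-plate chamber, and the other 3 were kept static. Pairing numbers 1 to 3 in the labels join each static culture to a sheared culture, and what a pair shared is not stated. The p-values below therefore rest only on spread among these samples, and that spread may be technical. In the limma fits the variance is partly drawn from other probe sets, so a p-value does not measure a probe set's own spread alone. Strain, age and genotype of the animals are not given in the sources used here.

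Ribosomes hold a small subunit, which reads the mRNA, and a large subunit, which joins amino acids. Their proteins are made in near-equal numbers and assembled with ribosomal RNA in the nucleolus, and growing cells devote much of their mRNA to them. Most of these mRNAs are 5′ TOP mRNAs, which start with a C followed by a run of pyrimidines. The kinase mTORC1 and the RNA-binding protein Larp1 act through that start to set how well the mRNAs are translated and how long they last. Arrays such as these measure mRNA abundance and not translation.

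The start sites of 9 members that the results below name are shown, chosen so that starts with and without a pyrimidine run can be seen side by side. RefSeq's promoter table (build GRCr8) held 43 of the 50 genes, and not Rps29, Rpl27, Rpl7, Rpl23a, Rpl30, Rpl37-ps2 or Rps4x-ps1. Each line covers 20 bases before and 30 bases from the annotated start, read 5′ to 3′ on the gene's strand. Shorter runs stay in small letters, such as the CTTCC at the annotated start of Rpl39. Capitals mark the run nearest to the start that has a C and at least 7 further C or T letters:
Rps23 (chr2:23814497-23814546, plus strand): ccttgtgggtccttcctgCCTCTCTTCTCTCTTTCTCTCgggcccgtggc
Rplp0 (chr12:46718361-46718410, minus strand): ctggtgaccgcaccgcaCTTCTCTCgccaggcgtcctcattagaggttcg
Rpl19 (chr10:83519044-83519093, plus strand): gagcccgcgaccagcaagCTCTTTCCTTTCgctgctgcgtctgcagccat
Rpl39 (chrX:121195867-121195916, minus strand): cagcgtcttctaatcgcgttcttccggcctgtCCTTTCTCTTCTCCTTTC
Rpl22 (chr5:168117941-168117990, plus strand): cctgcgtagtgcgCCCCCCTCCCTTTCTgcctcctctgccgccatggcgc
Rps15a (chr1:181860255-181860304, minus strand): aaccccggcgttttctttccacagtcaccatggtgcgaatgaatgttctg
Rps6 (chr5:106420511-106420560, minus strand): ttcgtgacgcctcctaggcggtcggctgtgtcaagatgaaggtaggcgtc
Rpl11 (chr5:153560773-153560822, minus strand): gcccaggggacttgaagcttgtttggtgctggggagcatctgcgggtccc
Rpl7l1 (chr9:21695698-21695747, plus strand): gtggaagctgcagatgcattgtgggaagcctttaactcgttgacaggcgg

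The upper 5 genes hold such a run and the lower 4 do not, although Rps15a, Rps6 and Rpl11 are core genes. A C with at least 7 further C or T letters, sought on the gene's strand and starting within 20 bases of the annotated start, was present in 26 of 43 members (60.5%) and in 13.8% of all 33469 promoters in the table. A C exactly at the annotated start with at least 4 pyrimidines after it was found in 12 of 43 (27.9%) against 2.63%, and this pattern can overlap the longer run. The letters CCGGAAG, the core of an ETS factor site, lay on either strand of the 300-base promoter in 10 of 43 (23.3%) against 8.75% of all. AAGATGGC, a YY1-like sequence, was in 4 (9.30%) against 3.17%. These are matches of letters, and an annotated start may lie some bases away from the start used in these cells.

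Member probe sets were bright. The signal is the MAS5 value, a linear brightness in arbitrary units that the authors scaled so that all arrays had nearly the same trimmed mean. Of the 57, 39 had a mean of 2500 or more over the 6 arrays, a limit set after the values were seen. These 39, for 38 genes, were all among the 500 brightest probe sets, and 26 were among the brightest 100. They held between 2.94% and 3.54% of all signal on an array. Their highest value on an array (4158.3 to 5480.8) stood not far under that array's highest value (4762.6 to 6324.6). The other 18 had means from 1.07 to 986.9, and 12 genes were represented only among these dimmer probe sets.

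**Figure D1:**
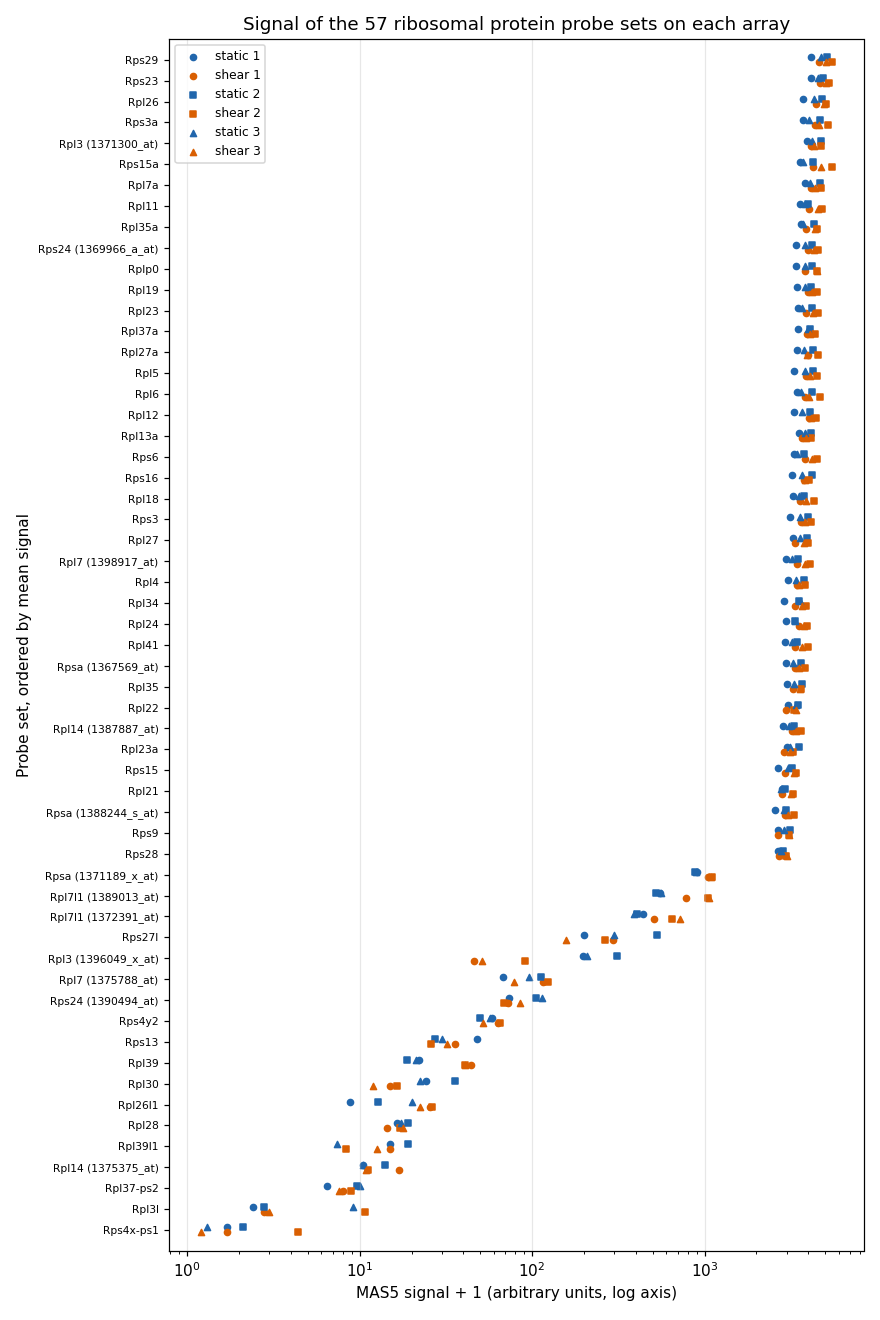
Signal of every member probe set (rows, ordered by mean) on each of the 6 arrays, as MAS5 signal + 1 in arbitrary units on a log axis; blue marks static, orange marks shear, and circles, squares and triangles mark pairs 1, 2 and 3. The 39 bright probe sets form a narrow column between 2567.5 and 5480.8, in which the array of pair 1 is mostly lowest and that of pair 2 mostly highest in both groups, and the other 18 trail down to single digits.

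Under shear the family's median stood slightly higher on the deposited scale and with arrays centred on their medians or spike-ins, but slightly lower after quantile normalization. The median signal of the 39 bright probe sets was 3289.3, 3964.3 and 3639.7 on the static arrays 1 to 3, and 3788.1, 4292.7 and 3871.5 on the sheared ones. Each sheared array lay above its static partner, while sheared array 1 and array 3 lay below static array 2, so the groups overlapped. Over the 55 members that passed a filter on low values, the median change was 0.13 on the log2(signal + 16) scale against -0.07 over all 21729 probe sets tested. The members' median was 0.18, 0.09 and 0.11 in pairs 1, 2 and 3 (SD 0.046 over the 3 pairs). These are bulk cultures, in which fewer cells of a type and less RNA per cell cannot be told apart.

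In limma's paired fit (adjusted p under 0.05 over all probe sets tested), 22 of the 55 rose, 2 fell and 31 did not pass. Over all probe sets 24.3% rose, 28.5% fell and 52.8% passed either way. So 40.0% of the tested members rose and 3.64% fell. All sheared arrays lay above all static arrays in 9 of the 55 tested members and below them in 2, against 27.1% and 32.9% of all probe sets tested, and the groups overlapped in the others. The change was upward in all 3 pairs for 36 of the 57, against 7826 of all 31042 probe sets. Without the pairing block 9 rose and 2 fell, against 24.1% risen of all probe sets. The count also moved with the pairs used: 4 rose without pair 3, 11 without pair 2 and 24 without pair 1, where 17.8%, 18.5% and 26.8% of all probe sets rose. It was 5 without the intensity trend of the variance and 9 with no filter on low values, where 23.4% and 15.3% of all rose. Of the 39 bright members 1, Rps15a, rose after quantile normalization, with spike-in centring, without the trend and without pair 3.

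The bright members changed little. Their 39 changes ran from -0.06 to 0.32 with an SD of 0.075. Of them 17 rose (43.6%, against 24.3% of all probe sets tested) and 0 fell (against 28.5%). The sizes lay within 0.25 of no change for 38 of the 39 (97.4%), for 75 of the 150 other probe sets as bright (50.0%), and for 36.0% of all tested. Those 150 had a median of 0.18 and an SD of 0.59, with 85 risen (56.7%) and 17 fallen (11.3%). They were picked by their mean over both groups, so probe sets high in a single group could enter, and their changes reached 5.32. This selection widens their spread, so they are a limited yardstick for the members. Probe sets with several symbols that included a family gene gave 23 risen (63.9%) and 1 fallen (2.78%) of 36, with a median of 0.17. The shares of all probe sets are those given above.

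**Figure D2:**
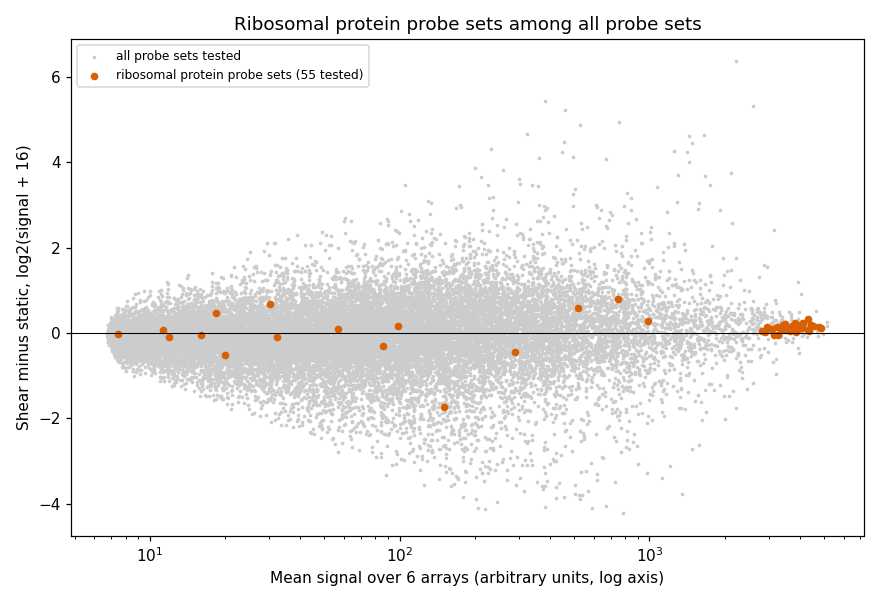
Change from static to shear (log2(signal + 16), mean of 3 pairs) against mean signal over the 6 arrays (log axis) for all 21729 probe sets tested in grey and the 55 tested members in orange. Most members sit at the bright end in a cluster close to 0, between -0.06 and 0.32, while the dimmer members scatter from -1.72 to 0.79 with the grey cloud.

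The bright members moved by array as well as by condition. Within static arrays, array 2 was the highest for 38 of the 39 and array 1 the lowest for 38. Within sheared arrays the counts were 35 and 38. Spike-in control RNAs are added to each sample and not made by the cells. The 4 cre controls among them were 0.06 to 0.16 higher under shear, with a mean of 0.11 and pair means of 0.15, 0.11 and 0.06. The brightest of them read 3936.7, 4786.0 and 4349.0 on the static arrays and 4456.0, 5074.4 and 4459.5 on the sheared. There array 2 was highest and array 1 lowest in both groups, and sheared was above static within each pair, but the controls did not all do so. A cre control was lower under shear in pair 2 (3685.5 against 3658.8), and a bioD control was lower under shear in pairs 2 and 3. The 8 spike-in probe sets used here (those of cre and bioD only) averaged 0.07, from -0.09 to 0.16. The part of array brightness in the family's rise was not tested beyond the scalings that follow.

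Scaling decided how many members passed. After quantile normalization 6 rose and 6 fell with a median of -0.02, against 27.3% and 24.9% of all probe sets, whose median was 0.02. With every array centred on its median, 42 rose and 2 fell with a median of 0.28, against 31.4% and 21.7% and a median of 0.08. With arrays centred on the 8 spike-ins, a scaling added after the data were seen, 5 rose and 3 fell with a median of 0.05, against 20.5% and 32.9% and a median of -0.14. Centred on the family's own median, also added afterwards, 4 rose and 5 fell, against 18.5% and 37.9% and a median of -0.21. Of all calls, 46.1% were rises as deposited, 52.3% after quantile normalization, 59.1% with median centring, 38.4% with spike-in centring and 32.8% with family centring.

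**Figure D3:**
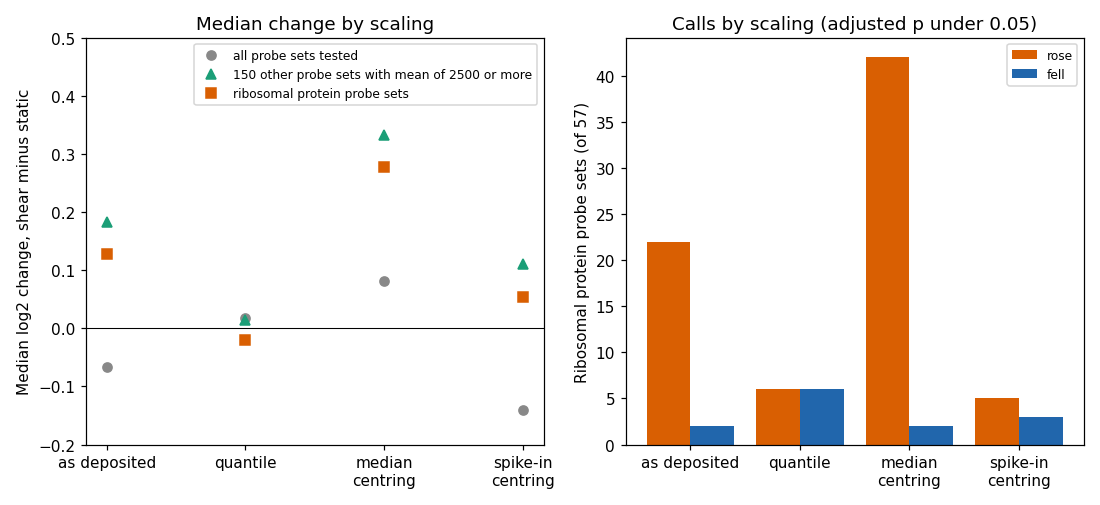
Left, the median change (log2, shear minus static) of the tested members, of 150 other probe sets as bright and of all probe sets tested, under 4 scalings; right, the number of member probe sets that rose or fell under each. The members' median goes from 0.13 as deposited to -0.02 after quantile normalization, 0.28 with median centring and 0.05 with spike-in centring, and the risen count goes from 22 to 6, 42 and 5.

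Under all 5 scalings 4 probe sets rose, those of Rps15a and Rpl39 and both of Rpl7l1, and 2 fell, the dim probe sets of Rpl3 and Rpl30. Rpl26l1 rose under every scaling but the family's own. Other calls came and went with the scaling. Median centring added 20 rises, of 0.18 to 0.29. Rpl13a, Rpl22, Rpl23a and Rps9 fell after quantile normalization (by 0.13, 0.21, 0.23 and 0.14). Rpl22, Rpl23a and the dim Rps24 probe set fell with family centring (by 0.18, 0.20 and 0.44), and the last also fell with spike-in centring. Rpl22, Rpl23a, Rps9 and the dim Rps24 probe set are named here after their values were seen.

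Small subunit proteins gave 16 probe sets for 13 genes, of which 6 rose (37.5%, against 24.3% of all probe sets tested) and 0 fell (against 28.5%), with a median of 0.13. Rps15a, a protein of the subunit's body, changed most among the bright members. Its probe set read 3562.3, 4252.0 and 3729.5 on the static arrays and 4271.7, 5480.8 and 4708.4 on the sheared. All sheared values lay above all static ones, for a ratio of means of 1.25. The change was 0.32 (95% interval 0.21 to 0.43, adjusted p = 0.000814), and it was 0.17 after quantile normalization (adjusted p = 0.0123) and 0.25 with spike-in centring (adjusted p = 0.0162).

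Rps6, the S6 kinase substrate whose phosphorylation follows mTORC1 activity, read 3318.5, 3765.3 and 3453.8 static and 3836.6, 4484.7 and 4176.0 sheared. Here too the groups did not overlap, and the change was 0.24 (0.13 to 0.35, adjusted p = 0.00319). After quantile normalization it was 0.07 (adjusted p = 0.248) and with spike-in centring 0.17 (adjusted p = 0.064), so neither scaling kept the call, nor did the fit without pair 3 (adjusted p = 0.0682). Over the small subunit, the risen count was 3 without the block, 1 without pair 3 and 3 without pair 2, where 24.1%, 17.8% and 18.5% of all probe sets rose.

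Rps29 and Rps23, the latter a protein of the decoding centre, gave the highest signals, although probe sets differ in their response and signals give no order of transcript amounts. Rps29 read 4158.3, 5144.0 and 4746.1 static and 4599.5, 5450.7 and 5088.9 sheared, a change of 0.11 that did not pass (adjusted p = 0.0687). Rps23 read 4147.6, 4894.8 and 4573.5 against 4671.8, 5278.0 and 5085.1. It rose by 0.14 (adjusted p = 0.026) with overlapping groups, and the value was -0.02 after quantile normalization (adjusted p = 0.79). Rps3a, a protein near the mRNA exit, rose by 0.18 (adjusted p = 0.0114), which became 0.04 after quantile normalization (adjusted p = 0.459) and 0.11 with spike-in centring (adjusted p = 0.162). Rps3, which lines the channel where mRNA enters, was at 0.13 and did not pass (adjusted p = 0.068). The Rps23 and Rps3a calls were lost without the block (adjusted p = 0.168 and 0.154) and without pair 3 (0.227 and 0.124), and that of Rps23 also without pair 2 (0.0831).

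Rpsa, which is also known as a laminin receptor, had 3 probe sets. The dimmest, whose _x suffix marks probes that may match other transcripts, read 904.1, 880.4 and 893.0 static and 1043.9, 1105.2 and 1094.9 sheared. Its static values were close to each other and all sheared ones lay above them. It rose by 0.27 (adjusted p = 0.0134). The other Rpsa probe sets were at 0.13 (adjusted p = 0.057) and 0.14 (adjusted p = 0.0525) and did not pass. Without pair 2 or pair 3 the dimmest lost its call (adjusted p = 0.124 and 0.131), and without pair 1 the last gained one (adjusted p = 0.0392).

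Large subunit proteins gave 32 probe sets for 29 genes, of which 13 rose (40.6%, against 24.3% of all) and 2 fell (6.25%, against 28.5%), with a median of 0.13. Risen counts were 3 without the block, 1 without pair 3 and 6 without pair 2, with the same shares of all probe sets as above. Among the bright probe sets Rpl11 changed most. It forms, with Rpl5 and 5S ribosomal RNA, a particle that joins the large subunit and can bind the p53 regulator Mdm2 when assembly stalls. Rpl11 read 3588.9, 3958.4 and 3827.8 static and 4048.8, 4793.6 and 4537.7 sheared, with no overlap. It rose by 0.23 (0.12 to 0.34, adjusted p = 0.00443), and the call was lost without pair 3 (adjusted p = 0.0736), after quantile normalization (0.07, adjusted p = 0.264) and with spike-in centring (0.16, adjusted p = 0.0865). Its partner Rpl5 read 3289.3, 4258.1 and 3813.0 against 3851.5, 4478.3 and 4105.9, with overlap, and its 0.14 did not pass (adjusted p = 0.0582).

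Rpl7, Rpl24, Rpl41 and Rpl12 followed at 0.22, 0.21, 0.19 and 0.19. Rpl24, a protein of the bridge between the subunits, read 2964.4, 3355.7 and 3354.3 static and 3515.0, 3933.5 and 3758.3 sheared. The sheared values were all higher (adjusted p = 0.00779). Rpl7 (adjusted p = 0.00532), the very short Rpl41 (adjusted p = 0.0106) and Rpl12 (adjusted p = 0.0162), which sits at the base of the stalk, overlapped between groups but were higher in all 3 pairs. After quantile normalization all 4 were between 0.03 and 0.06 and none passed. Without pair 3 none passed either (adjusted p = 0.068 to 0.121), and Rpl24 and Rpl41 were lost without pair 2 (0.0577 and 0.0824). Rpl7, Rpl12 and Rpl41 were lost without the block (adjusted p = 0.0565, 0.0883 and 0.0969). These Rpl7 values are of its bright probe set. A dim Rpl7 probe set read 66.9, 111.5 and 95.6 static and 115.3, 122.8 and 77.4 sheared. Its change of 0.18 did not pass (adjusted p = 0.424).

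Rplp0 anchors the stalk that recruits elongation factors, and it is often used as a reference transcript. Its signals were 3394.4, 4181.5 and 3806.6 static and 3838.6, 4472.8 and 4515.4 sheared. The groups overlapped, and it rose by 0.17 (adjusted p = 0.0213). The change was 0.00 after quantile normalization (adjusted p = 0.942). Rpl13a, which also acts outside the ribosome in silencing inflammatory mRNAs, read 3525.3, 4147.2 and 3813.3 against 3682.9, 4135.8 and 3871.5. Its change of 0.03 (-0.08 to 0.14) did not pass (adjusted p = 0.66). Rpl26, at the exit of the peptide tunnel, rose by 0.17 (adjusted p = 0.0248), which became -0.00041 after quantile normalization (adjusted p = 0.995). Rplp0 and Rpl26 lost their calls without the block (adjusted p = 0.16 and 0.181) and without pair 3 (0.261 and 0.205).

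**Figure D4:**
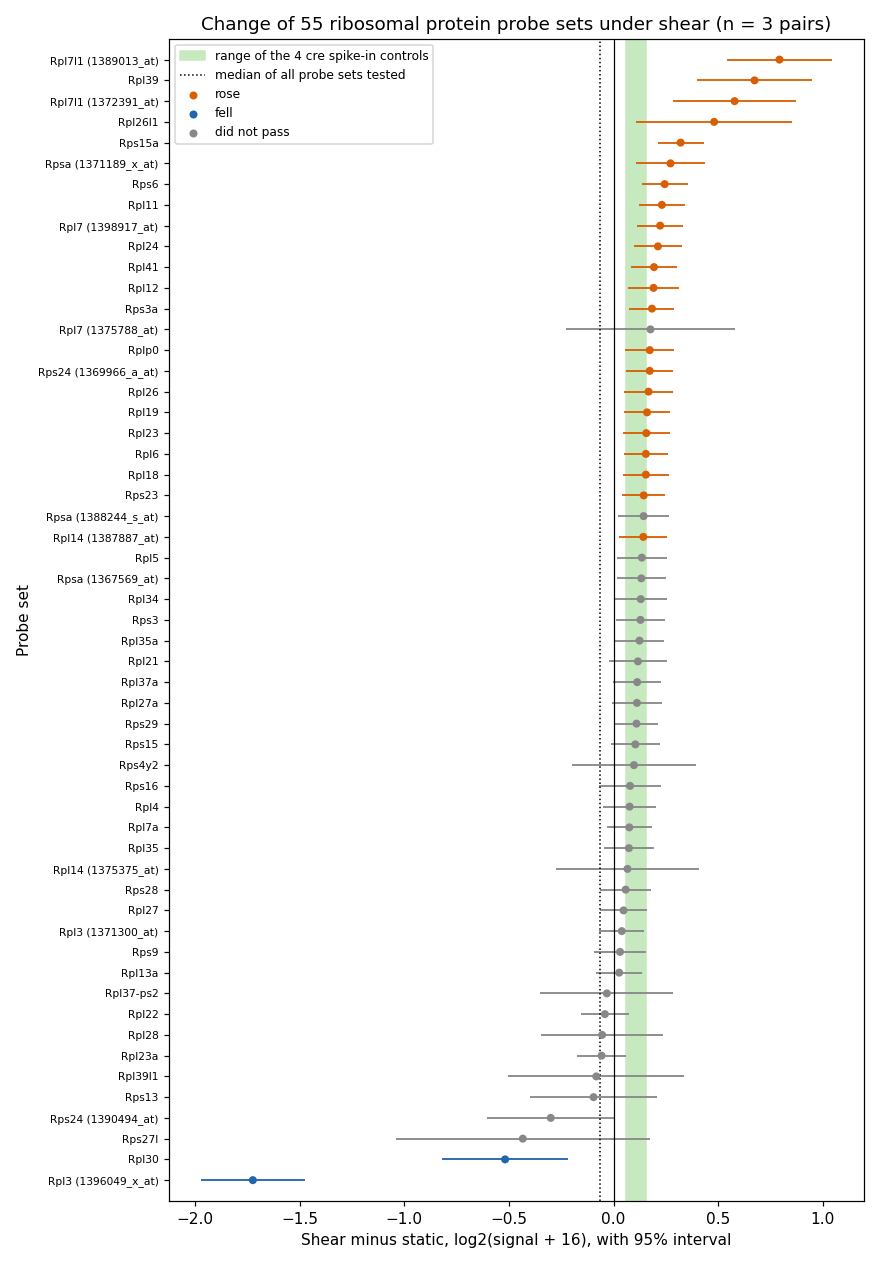
Change from static to shear with its 95% interval for the 55 tested member probe sets (rows, ordered by change; log2(signal + 16), 3 pairs), orange for those that rose, blue for those that fell and grey for those that did not pass on the deposited scale. Most intervals lie at or just above the green band of the 4 cre spike-ins (0.06 to 0.16), with Rpl7l1, Rpl39 and Rpl26l1 to the right and Rpl30 and the dim Rpl3 probe set to the left; after quantile normalization the middle of the list is centred near 0.

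Paralogs of core genes had 7 probe sets for 6 genes, 1 of them below the filter, and 3 of 6 rose (50.0%, against 24.3% of all) and 0 fell (against 28.5%). Both Rpl7l1 probe sets rose. Rpl7l1 is a relative of Rpl7 found on precursors of the large subunit. The brighter probe set read 547.5, 519.3 and 558.5 static and 776.5, 1043.1 and 1057.4 sheared, and the dimmer 436.3, 402.4 and 387.8 against 508.5, 647.1 and 715.4. In both, all sheared arrays were higher, and pair 1 changed least. The rises were 0.79 (0.54 to 1.04, adjusted p = 0.000545) and 0.58 (0.28 to 0.87, adjusted p = 0.00601). They were 0.72 and 0.53 after quantile normalization (adjusted p = 0.000684 and 0.00709). Without pair 3 the dimmer lost its call (0.44, adjusted p = 0.0542).

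Rpl26l1, a close copy of Rpl26, read 7.8, 11.7 and 19.1 static and 24.7, 25.4 and 21.3 sheared. It rose by 0.48 (0.11 to 0.85, adjusted p = 0.0368), with pair differences of 0.77, 0.58 and 0.09, at signals that could not be told from background without detection calls. The call was lost without pair 1 (adjusted p = 0.104) or pair 2 (0.122). Rps27l, a p53-responsive copy of Rps27, differed between pairs: 199.0, 526.5 and 296.6 static against 292.8, 262.3 and 156.2 sheared. It was higher under shear in pair 1 and lower in pairs 2 and 3, and its -0.43 (-1.04 to 0.17) did not pass (adjusted p = 0.202). Without pair 1, the pair that went the other way, it fell by 0.91 (adjusted p = 1.36e-08). That fit rests on pairs 2 and 3 only, with a variance drawn largely from other probe sets, so its p-value does not measure the spread of Rps27l. Rps4y2 (0.10, adjusted p = 0.553) and Rpl39l1 (-0.08, adjusted p = 0.728) did not pass. Rpl3l, the striated muscle form of Rpl3, stayed at or under 9.8 on every array and was below the filter.

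Some core genes were seen by dim probe sets. Rps13 (-0.10, adjusted p = 0.569) and Rpl28 (-0.05, adjusted p = 0.74) had no bright member probe set and did not pass. Both are named here after their values were seen. Rpl39, a short protein of the peptide exit tunnel with no bright member probe set, read 21.2, 17.8 and 20.3 static and 43.3, 39.9 and 39.9 sheared. All sheared values lay above all static ones, at signals near the median of all probe sets on an array (17.3 to 22.6) that could not be told from background without detection calls. The rise was 0.67 (0.40 to 0.95, adjusted p = 0.00194), and pair differences were 0.67, 0.73 and 0.62. The size depends on the number added before the logarithm, and was 1.02 with 1 and 0.33 with 64 in place of 16.

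Rpl30 was likewise seen only by a dim probe set, with 23.3, 34.8 and 21.4 static and 14.0, 15.5 and 10.9 sheared, equally near background. All sheared values were lower, and it fell by 0.52 (interval -0.82 to -0.22, adjusted p = 0.0111), a call lost without pair 2 (adjusted p = 0.0764). Rpl3, a protein beside the catalytic centre of the large subunit, differed by probe set. The dim probe set, again with the _x suffix and singled out after its values were seen, read 195.1, 311.7 and 207.9 static and 45.0, 90.2 and 50.4 sheared. It fell by 1.72 (interval -1.97 to -1.47, adjusted p = 1.24e-05), the widest change in the family. The bright Rpl3 probe set read 3927.2, 4758.7 and 4195.9 against 4158.9, 4751.6 and 4306.3, a change of 0.04 (-0.07 to 0.15) that did not pass (adjusted p = 0.507). Which transcripts the dim probe set detects was not tested.

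By the brightest probe set of each gene, 20 of 48 tested genes rose (41.7%, against 24.3% of all probe sets) and 1 fell (2.08%, against 28.5%). The genes were also split by the start site, with no test since the split was made after the values were seen. The 24 core genes with the long pyrimidine run had a median change of 0.11 with 7 risen. The 13 without it had 0.18 with 10 risen, where 24.3% of all probe sets tested rose. The ranges, -0.10 to 0.67 and 0.03 to 0.32, overlapped. Annotated starts may differ from the starts used in these cells, so genes without the run here may still have TOP mRNAs.

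Other mRNAs known to carry a TOP start, 19 of 29 listed genes with a probe set, gave 8 risen (42.1%, against 24.3% of all) and 2 fallen (10.5%, against 28.5%) with a median of 0.14. Many of the matched genes encode translation elongation and initiation factors. Rack1, a protein bound to the small subunit, rose by 0.20 (adjusted p = 0.012), and the filament protein gene Vim rose by 0.17 (adjusted p = 0.0108), but these became 0.03 and -0.0071 after quantile normalization. Both were lost without the block (adjusted p = 0.0899 and 0.169) and without pair 3 (0.156 and 0.125), and Rack1 without pair 2 (0.0501). Eif3h read 1297.0, 1534.9 and 1510.8 static and 1787.7, 2059.5 and 1944.6 sheared. It rose by 0.41 (adjusted p = 0.000826). Nop53, which works in the nucleolus, rose by 0.80 (adjusted p = 0.000161) and the splicing factor gene Hnrnpa1 fell by 0.87 (adjusted p = 3.2e-05). For Eif3h, Nop53 and Hnrnpa1 the groups did not overlap and the calls held after quantile normalization. The risen count was 3 without the block, 2 after quantile normalization, 2 without pair 3 and 4 without pair 2. Of all probe sets 24.1%, 27.3%, 17.8% and 18.5% rose under these settings. Fallen were 1 without pair 2 and 1 without pair 3, where 21.9% and 21% of all probe sets fell.

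Genes that act on ribosome production or TOP mRNAs, 36 of 40 listed, gave 13 risen (36.1%, against 24.3% of all) and 5 fallen (13.9%, against 28.5%) with a median of 0.21. Myc, which drives ribosome synthesis, read 373.6, 377.5 and 408.6 static and 665.7, 729.6 and 748.0 sheared. It rose by 0.86 (adjusted p = 9.39e-05). Polr3e and Polr3a, subunits of the RNA polymerase that makes 5S RNA and tRNA, rose by 1.45 (adjusted p = 3.56e-05) and 0.96 (adjusted p = 0.000227). Deptor, an inhibitor of mTOR, read 80.6, 74.4 and 65.0 static and 17.4, 12.7 and 8.9 sheared. It fell by 1.63 (adjusted p = 2.45e-05). In all 4 the groups were apart, and quantile normalization left the calls as they were. The fallen count was 3 without pair 3, where 21% of all probe sets fell.

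Ribosome assembly factors and proteins that dock on the ribosome, 19 of 25 listed, gave 12 risen (63.2%, against 24.3% of all) and 2 fallen (10.5%, against 28.5%) with a median of 0.44. Riok3, an atypical kinase that acts on small subunit precursors, read 533.4, 632.1 and 647.0 static and 3340.6, 3924.0 and 3734.0 sheared, a rise of 2.57 (adjusted p = 9.59e-07). Grwd1, which takes part in large subunit assembly, rose by 1.33 (adjusted p = 5.34e-05), and Rrp12, which helps export precursors, by 1.27 (adjusted p = 5.48e-05). Eif6, which keeps new large subunits from joining small ones too early, rose by 0.94 (adjusted p = 5.62e-05). None of these 4 overlapped between groups. The risen count was 8 without pair 2 and 8 without pair 3, where 18.5% and 17.8% of all probe sets rose. These 3 lists were written with earlier results of these data known, and the differences between their medians and the family's were not tested.

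**Figure D5:**
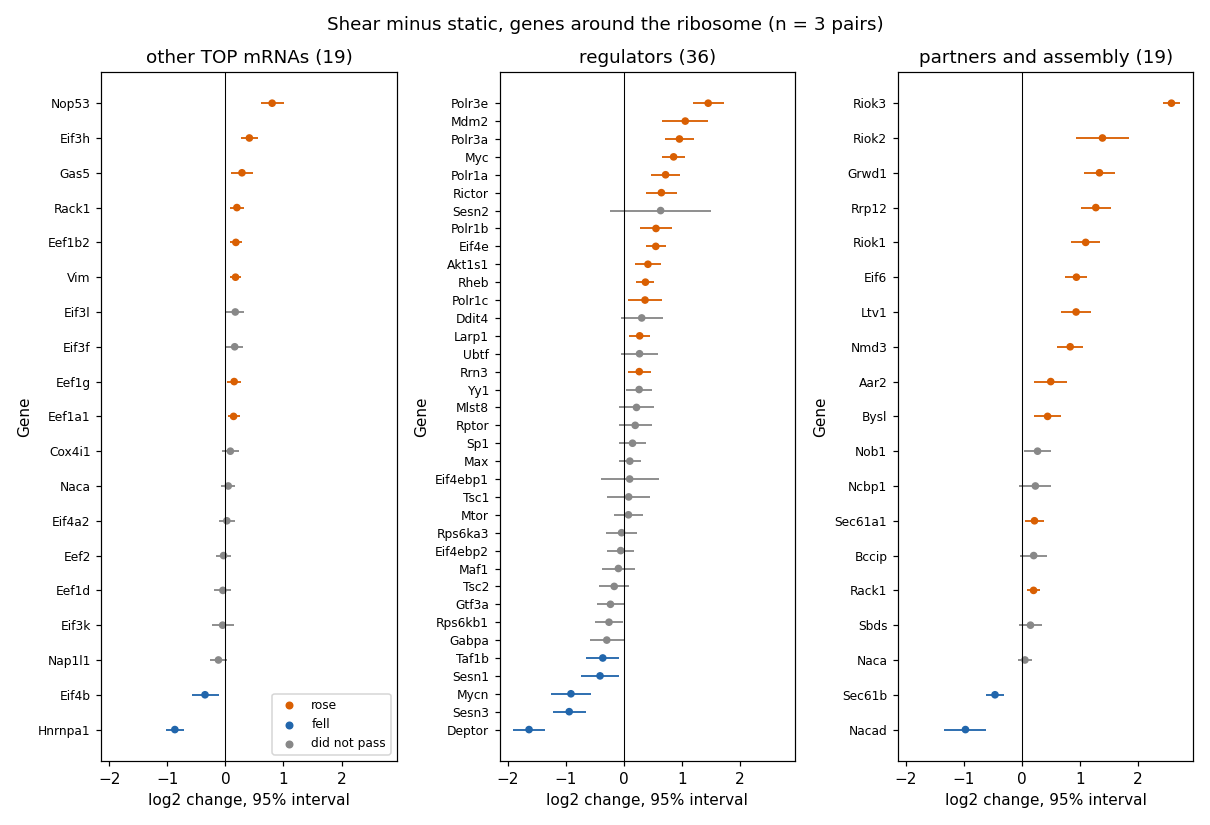
Change from static to shear with its 95% interval (log2(signal + 16), 3 pairs) for the matched genes of 3 lists, from left to right other TOP mRNAs (19 genes), regulators (36) and ribosome-bound and assembly partners (19), coloured as risen, fallen or not passed on the deposited scale. Most TOP mRNAs lie near 0, with Hnrnpa1 and Nop53 at the ends, while Riok3 reaches 2.57 and Deptor -1.63.

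The array also carried a control probe set for 5S ribosomal RNA, the partner of Rpl5 and Rpl11. It read 106.5, 89.1 and 90.8 static (95.5 ± 9.59, SD, n = 3) and 462.8, 201.4 and 298.7 sheared (321.0 ± 132.1, SD, n = 3). All sheared values were higher and spread more widely. The difference was 1.52 on the log2 scale (two-sided exact permutation p = 0.1, the smallest that 3 against 3 can give).

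Markers of the labelled cell type had mean signals from 17.0 to 2749.9, and many but not all moved with the groups. Presence could not be judged without detection calls. The 12 smooth muscle markers summed to between 11601 and 12481 on the static arrays and between 7086 and 7322 on the sheared. Of these, 0 rose (against 24.3% of all probe sets) and 8 fell (66.7%, against 28.5%), among them Acta2 and Mylk. The 4 that did not pass were Tagln, Des, Myocd and Actg2. Tagln, the brightest of the 12, was at 0.07 (adjusted p = 0.383), and Des read only 16.2 to 18.4. Sums of endothelial markers were 195.6 to 219.8 static and 160.0 to 177.8 sheared, of leukocyte markers 203.5 to 256.1 and 148.6 to 192.2, and of fibroblast markers 6487 to 8729 and 5392 to 7956. Of those tested, 0 of 4 endothelial markers rose and 1 fell, and 2 of 5 leukocyte markers rose and 1 fell. Of 9 fibroblast markers 1 rose and 5 fell, against the same shares of all probe sets. The fibroblast markers Lum and Dcn had means of 2691.1 and 2059.3, against 2749.9 for Tagln and 1323.6 for Acta2. Dcn rose by 0.39 (adjusted p = 0.00103), a call lost without the block (adjusted p = 0.205). Lum was at 0.17 and did not pass (adjusted p = 0.201). Some defining markers stood near 0: Pecam1, Vwf and Kdr at 8.6 or less on every array, Ptprc and Itgam at 3.0 or less. Other listed genes did not, such as Egfl7 at 75.8 to 125.2, Erg at 16.7 to 54.1 and Cd14 at 81.9 to 200.9. The part of these shifts in the ribosomal protein values was not tested.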

How the data were processed

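Rat Affymetrix arrays were measured in 3 static and 3 sheared cultures. The deposited intensity values, 1 per probe set and linear, were made by the authors with MAS5, per the submitters' processing notes, which name no version. The authors had scaled the arrays: the mean of the values between the lowest and highest 2% was 100.0 on each. No detection calls were used.

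Because 3 to 10 values per array were exactly 0, 16 was added before taking log2. After dropping the dimmest 30%, 21729 probe sets remained. The groups were compared in limma 3.58.1 under R 4.3.3 (lmFit, then eBayes with a trend in intensity), blocking on the pairing number. Two-sided p-values were corrected across every tested probe set by the Benjamini-Hochberg method and called at 0.05. The alternatives, given in the closing section, changed the block, scaling, filter, pseudocount, variance model and pairs used. Symbols came from the platform annotation, and 55 of 57 members matched RefSeq gene identifiers.

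The pairing comes from the labels. Within pairs, deviations from group means correlated by 0.0712, 0.0648 and 0.0626, and all 6 arrays correlated best with their partner.

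Members and lists were chosen with earlier results of these data known. Named were up to 10 members with the largest change each way, the 6 brightest, the paralogs, the stalk, Rps6, Rpl5, Rpl11, Rpsa, Rpl13a, Rps3 and Rack1, and up to 4 genes of each list by smallest p. Plots used matplotlib 3.10.9 (Python 3.11.15).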

Additional observations from a re-analysis of the deposited data

Results flagged for a closer look

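The 5S ribosomal RNA control lies outside the gene probe sets that the comparison used. Its mean signal was 320.97 in the sheared cultures and 95.5 in the static ones, higher under shear in all 3 pairs. The probe set belongs to the array's controls, and the part of RNA preparation in this difference was not tested.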

How the results depend on the processing

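The number of risen members depended on the fit. Of the 57 member probe sets, 9 rose without the replicate block, 10 with a random block, 6 after quantile normalization, 42 with median centring, 9 with no filter, 5 without the intensity trend and 5 with spike-in centring. Leaving out a pair gave 4 to 24. Of all probe sets, 24.1% rose without the block, 27.3% after quantile normalization, 31.4% with median centring and 15.3% with no filter. Without the trend 23.4% rose, with spike-in centring 20.5%, and with a pair left out 17.8% to 26.8%. A random block called 11691 of 21729 probe sets (45.7% of calls risen) and the 50% filter 10043 of 15521 (48.6% risen). After quantile normalization 24.9% of all fell, and with median centring 21.7%. Members that fell numbered 6 after quantile normalization, 1 with the 50% filter, 1 over plain-suffix probe sets, 1 by the brightest probe set per gene, and 1 to 4 with a pair left out. The median change was -0.020 after quantile normalization, 0.28 with median centring and 0.055 with spike-in centring.

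Small subunit probe sets risen were 3 without the replicate block, 3 with a random block, 2 after quantile normalization, 14 with median centring, 3 with no filter, 1 without trend and 1 to 7 with a pair left out. Fallen were 1 after quantile normalization and 0 to 1 with a pair left out. Large subunit probe sets risen were 3, 4, 1, 25, 4 and 1 under those 6 settings in that order and 1 to 15 with a pair left out. Fallen were 5 after quantile normalization, 1 with the 50% filter and 1 to 2 with a pair left out. Paralogs fallen were 0 to 1 with a pair left out.

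Other TOP mRNAs risen were 3 without the replicate block, 3 with a random block, 2 after quantile normalization, 3 with no filter, 2 without trend and 2 to 10 with a pair left out. Fallen were 4 after quantile normalization, 1 with median centring and 1 to 2 with a pair left out. Regulators risen were 20 with median centring. Regulators fallen were 3 after quantile normalization, 3 with median centring, 3 with no filter and 3 to 6 with a pair left out. Assembly partners fallen were 1 with the 50% filter. After quantile normalization 26 of the 45 members with a change above 0 turned negative, among them Rps23 (-0.015), Rpl26 (-0.00041) and Rpl13a (-0.13), as did Vim (-0.0071). For calls lost with no filter or the random block the cause was not tested.

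The 58 named probe sets include list genes picked by smallest p in these data, not all of them described above. That choice by p makes kept calls more likely. Of the 58, 32 kept their direction and side of the threshold under all of the alternatives listed at the outset. Over those 13 fits, 3 members passed as risen in each (Rps15a, Rpl39 and the brighter Rpl7l1 probe set) and 1 as fallen in each (the dim Rpl3 probe set). Pseudocounts of 1 and 64 and robust estimation left all counts above within 1.5 times. Changes of dim members are limited by signal over background, which could not be judged without detection calls, and 3 arrays per group limit all precision.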
